A study of Nannochloropsis oceanica with 6 samples.

Results

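The genes of DNA replication and DNA repair were followed in Nannochloropsis oceanica IMET1, a single-celled marine alga that accumulates oil, over 2 days without nitrogen. Members were chosen by annotation, with earlier results of these data known. A gene was included where the KEGG pathway column of the deposited tables named DNA replication, base excision repair, nucleotide excision repair, mismatch repair or homologous recombination and did not name ubiquitin mediated proteolysis, and 112 of 10569 genes met this rule. The second condition left out 5 genes, which encode CUL4 (2 genes), DDB1, CSA and RBX1. Of the 112 members 40 were listed under DNA replication, 24 of them also under a repair pathway, and 72 were listed under repair pathways only. The files pair each identifier with a KEGG ortholog and a protein description, and where these name different proteins both are given. Of the 112 members 25 had fractional counts, which can arise where reads fit more than 1 gene, and their values are less certain. Under DNA replication these were MCM2, MCM3, RFC1, POLA2, rnhB, RNASEH2C, NO19G01280, NO19G01290, NO11G02990, NO11G03000 and NO21G02210. Under repair pathways only they were TFB4, TFB5, MSH6, NO05G01690, NO06G04070, NO12G00510, NO12G02770, NO14G02200, NO14G02210, NO17G00010, NO17G00020, NO17G01290, NO25G00950 and NO25G00980.

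Messenger RNA had been sequenced in 3 groups of 2 libraries. C0 cells were in logarithmic growth in nitrogen-replete f/2 medium under light of 80 µmol per square metre and second, and N1 and N2 cells had been washed and kept for 1 and 2 days in f/2 medium without nitrogen at 50 µmol. Nitrogen, washing and light therefore changed together between C0 and the other groups and cannot be told apart, whereas N1 and N2 shared the same medium and light and differed by 1 day. The design asks how transcripts of the copying machinery and those of repair stood on each day.

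Before a cell divides it copies its DNA once. The MCM ring opens the double helix, primase with polymerase alpha lays down short primers, and polymerases delta and epsilon extend them while held to the template by the PCNA clamp, which the RFC complex loads. RPA coats the exposed single strand, and flap nucleases, ribonucleases and ligases join the fragments of the lagging strand. Repair uses separate recognition enzymes (glycosylases for damaged bases, the XP proteins and TFIIH for bulky lesions, MutS and MutL for mismatches, recombinases for broken strands) and then borrows the clamp, its loader, the polymerases and the ligases from replication, and KEGG lists these under both. Chloroplasts and mitochondria keep DNA of their own and use enzymes of bacterial type.

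Library totals lay between 4875888 and 6523021 estimated counts, and both N2 libraries (6523021 and 6379149) were deeper than the other 4. The part of depth in the results was not tested. The study calls the 2 libraries of a group biological replicates, the labels do not say whether they came from separate cultures, and the p-values measure the spread between them. All 112 members passed the filter of at least 1 CPM (counts relative to library size, scaled by TMM) in at least 2 libraries, as did 9736 genes in all. The counts of a member in a library ran from 4 to 1910, and 3 members had under 10 counts in some library. In whole cultures, a lower share of cells in replication and less RNA per replicating cell cannot be told apart. A gene is said to have risen or fallen at an adjusted p below 0.05 (edgeR quasi-likelihood test, Benjamini-Hochberg over all 9736 genes), and changes are log2 fold changes ± SE with n = 2 libraries per group. Each call was repeated under 12 alternatives, of which 6 left out 1 library each. In every call of a member the 2 libraries of one group lay wholly above the 2 of the other. Such separation also occurred without a call. In N1 against C0 11 replication members lay wholly higher and 24 wholly lower, where 11 rises and 19 falls were called. The share of separated genes among all genes was not counted. Of the 215 calls of members over the 3 comparisons 153 held under all 12 and 0 reversed.

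In N1 against C0 19 of the 40 replication members fell, 11 rose and 10 were not called, with a median log2 fold change of -0.47. Among all genes tested 37.1% fell, 33.3% rose and 70.4% were called in either direction, with a median of -0.04. This lean towards falls rested in part on genes with fractional counts. Of the 29 replication members without them 11 fell (37.9%) and 9 rose (31.0%), with a median of -0.44, so that the share that fell was near that of all genes. Of the 72 repair-only members 25 fell, 15 rose and 32 were not called, with a median of -0.19. Under every alternative 13 falls and 9 rises of replication members and 19 falls and 12 rises of repair-only members held. At least 2-fold falls were seen in 6 of 40 replication and 7 of 72 repair-only members, against 14.9% of all genes. At least 2-fold rises were seen in 1 of 40 and 5 of 72, against 13.3%.

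On day 2 the balance of the replication members had turned. In N2 against C0 18 of 40 rose, 7 fell and 15 were not called, with a median log2 fold change of 0.28. Among all genes 35.0% rose, 34.9% fell and 69.9% were called in either direction, with a median of 0.01. Without fractional counts 14 of 29 rose (48.3%) and 3 fell (10.3%), with a median of 0.30. The repair-only members were nearly even, with 24 that rose, 23 that fell and 25 not called, and a median of 0.02. Under every alternative 14 rises and 7 falls of replication members and 18 rises and 17 falls of repair-only members held. At least 2-fold rises were seen in 7 of 40 replication and 5 of 72 repair-only members (13.8% of all genes). At least 2-fold falls were seen in 2 of 40 and 4 of 72 (10.9% of all genes).

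Between day 1 and day 2, at the same medium and light, 26 of 40 replication members rose and 3 fell, with a median of 0.50, where 29.4% of all genes rose, 28.5% fell and 57.9% were called in either direction, with a median of 0.0. Without fractional counts 19 of 29 rose (65.5%) and 2 fell (6.90%). Of the 72 repair-only members 32 rose and 12 fell, with a median of 0.20. Under every alternative 16 rises and 2 falls of replication members and 20 rises and 6 falls of repair-only members held. The 12 falls of repair-only members came down to 7 without N1 replicate 1 and to 7 without N2 replicate 1. At least 2-fold rises were seen in 7 of 40 replication and 3 of 72 repair-only members, where 8.70% of all genes did so. No member fell at least 2-fold, where 3.66% of all genes did. The difference between replication and repair-only members was not tested.

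Both comparisons with C0 rest on the same 2 C0 libraries. The 16 replication members that KEGG lists under replication alone had medians of -0.50 in N1 against C0, 0.30 in N2 against C0 and 0.72 in N2 against N1. The 24 shared with repair had medians of -0.43, 0.25 and 0.40 in the same comparisons.

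**Figure D1:**
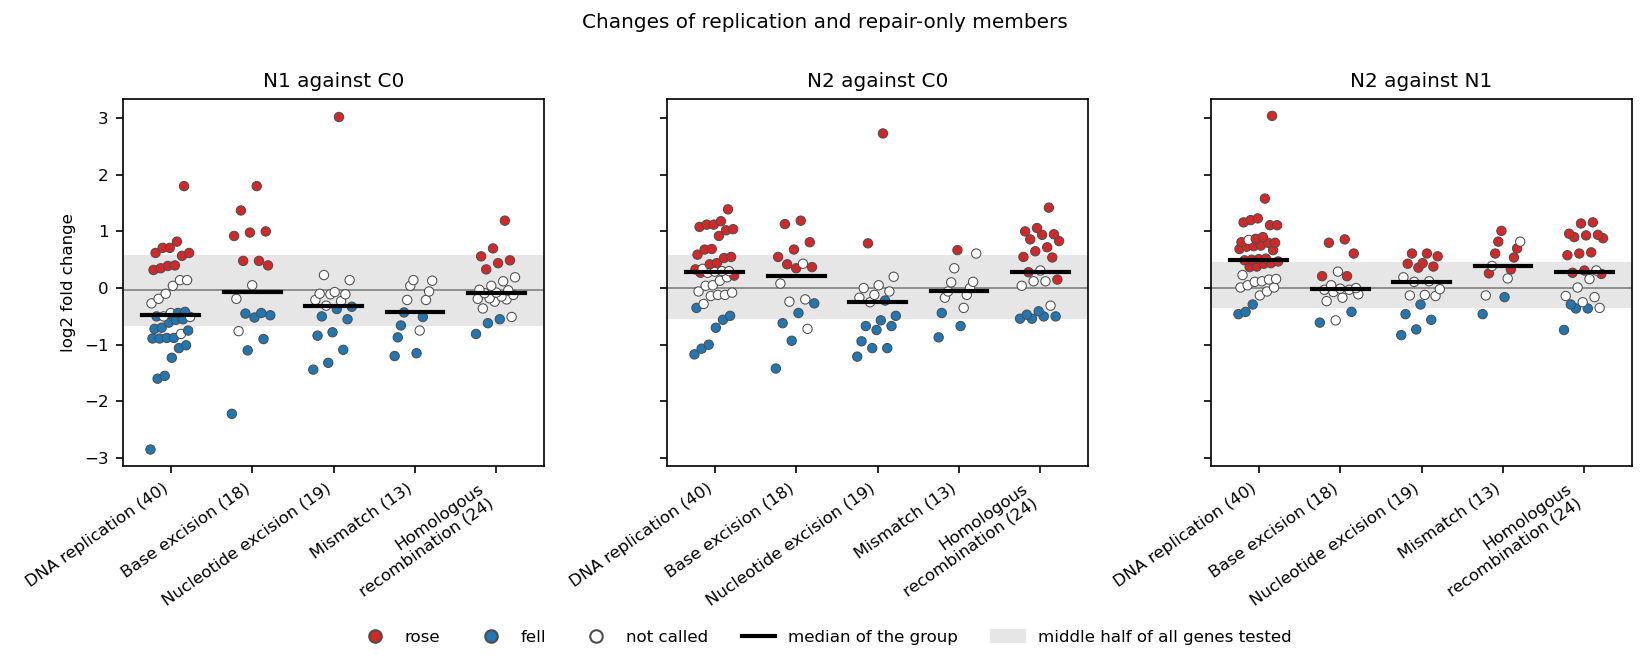
Log2 fold changes of the members (points, coloured where the edgeR test called them) for the 40 replication members and for the repair-only members by pathway, in N1 against C0, N2 against C0 and N2 against N1. Black bars are group medians, the grey band is the interquartile range of all 9736 genes with their median as a line, and the 2 genes listed under more than 1 repair pathway appear in each. The replication median is -0.47 in the first panel and 0.50 in the third.

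Summed over the class and scaled by gene length and library (TPM), replication members reached 1432 and 1467 TPM in C0, 1319 and 1296 TPM in N1 and 1797 and 1775 TPM in N2. Repair-only members summed to 2617 and 2568 TPM in C0, 2308 and 2311 TPM in N1 and 2714 and 2682 TPM in N2. In both classes the N1 libraries lay below the C0 libraries and the N2 libraries above them, without overlap. For repair-only members the step from C0 to N2 was small, from a mean of 2592 TPM to 2698 TPM. Their median log2 fold change in N2 against C0 was 0.02. The median gene tested also stood higher in N2 than in C0, and these sums were not tested. The median member of either class stood below the median gene tested in each group. The median replication member stood at 25.6 TPM in C0, 20.8 TPM in N1 and 32.6 TPM in N2, the median repair-only member at 28.6 TPM in C0, 25.6 TPM in N1 and 28.7 TPM in N2, and the median gene tested at 46.6 TPM in C0, 46.9 TPM in N1 and 51.1 TPM in N2.

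The MCM ring, built from 6 different subunits, moved unevenly. MCM6 (NO03G05310) fell most on day 1 among replication members that averaged 10 CPM or more, at 84.4 and 79.6 CPM in C0, 28.7 and 25.2 CPM in N1 and 60.7 and 55.9 CPM in N2. It was 3.03-fold lower in N1 than in C0 (log2 fold change -1.60 ± 0.11, adjusted p = 4.2e-09), 1.4-fold lower in N2 than in C0 (-0.49 ± 0.088, adjusted p = 0.000179) and 2.16-fold higher in N2 than in N1 (1.11 ± 0.11, adjusted p = 8.28e-07). Its groups did not overlap, and N2 lay between N1 and C0. MCM2 (NO22G00890), the most abundant subunit per length at 97.5 TPM in C0, had 282 and 263 CPM in C0, 162 and 161 CPM in N1 and 266 and 249 CPM in N2. It fell in N1 against C0 (-0.75 ± 0.060, adjusted p = 3.67e-08) and rose in N2 against N1 (0.67 ± 0.059, adjusted p = 3.17e-07), while N2 and C0 overlapped (-0.08 ± 0.056, adjusted p = 0.221). MCM3 (NO02G05290) took the same course with 52 and 59.9 CPM in C0, 36.7 and 39.2 CPM in N1 and 59.5 and 63 CPM in N2. MCM3 had a log2 fold change of -0.56 ± 0.11, adjusted p = 0.000321 in N1 against C0 and of 0.69 ± 0.10, adjusted p = 5.63e-05 in N2 against N1.

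MCM5 and MCM7 were not lower on day 1. MCM5 (NO14G02840) had 22.2 and 27 CPM in C0, 27.4 and 26.9 CPM in N1 and 47.9 and 53.6 CPM in N2, so that it was near its C0 level in N1 (0.14 ± 0.14, adjusted p = 0.404) and rose in N2 against C0 (1.04 ± 0.12, adjusted p = 3.28e-06). MCM7 (NO27G01470) had 49.6 and 44 CPM in C0, 59.9 and 63.1 CPM in N1 and 60.6 and 66.8 CPM in N2. MCM7 was higher on both days (0.39 ± 0.10, adjusted p = 0.00316 in N1 and 0.44 ± 0.097, adjusted p = 0.000914 in N2, both against C0). MCM4 is annotated at 2 loci with consecutive identifiers. NO07G00730 had 13.3 and 14.6 CPM in C0, 10.9 and 8.74 CPM in N1 and 18.3 and 16 CPM in N2. NO07G00730 rose in N2 against N1 (0.80 ± 0.20, adjusted p = 0.00343). Its call in N1 against C0 (-0.50 ± 0.21, adjusted p = 0.0488) ended at an adjusted p of 0.0628 with size factors of DESeq2, of 0.217 by DESeq2, of 0.0796 with just the compared groups fitted, of 0.0562 with the replicate number as a block, of 0.0769 on omitting C0 replicate 1, of 0.18 on omitting C0 replicate 2, of 0.233 on omitting N1 replicate 2, of 0.0594 on omitting N2 replicate 1 and of 0.0562 on omitting N2 replicate 2. NO07G00720, a gene model of only 402 bases, had 1.39 and 1.53 CPM in C0, 0.793 and 0.853 CPM in N1 and 2.36 and 0.611 CPM in N2. NO07G00720 was not called in any comparison. Summed over the other 6 loci, the MCM transcripts made up 214.5 and 210.5 TPM in C0, 152.1 and 147.2 TPM in N1 and 254.9 and 249.7 TPM in N2, so that the groups did not overlap. Whether the subunits differ from each other in their change was not tested.

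The clamp was higher on day 1, and parts of its loader were lower. PCNA (NO06G02560), the sliding clamp, had 61.3 and 61.7 CPM in C0, 90.6 and 92.1 CPM in N1 and 95.7 and 102 CPM in N2. PCNA was higher on both days (0.57 ± 0.079, adjusted p = 1.4e-05 in N1 and 0.69 ± 0.075, adjusted p = 1.3e-06 in N2, both against C0). All 5 clamp loader genes rose in N2 against N1, where 29.4% of all genes rose. Of these 5 rises 3 held under every alternative. RFC1 (NO24G01080), the large subunit, had 87.9 and 95.2 CPM in C0, 51.3 and 60.3 CPM in N1 and 74 and 69.5 CPM in N2. RFC1 fell on both days against C0 (-0.72 ± 0.094, adjusted p = 7.51e-06 in N1 and -0.35 ± 0.085, adjusted p = 0.00209 in N2). NO06G02850, annotated as RFC3 or RFC5, had 18.5 and 20.9 CPM in C0, 8.13 and 13.2 CPM in N1 and 22.9 and 26.9 CPM in N2. NO06G02850 had a log2 fold change of -0.89 ± 0.22, adjusted p = 0.00238 in N1 against C0 and of 1.23 ± 0.21, adjusted p = 0.000167 in N2 against N1. Its N2 values did not overlap with C0, although the test did not call the difference (0.34 ± 0.19, adjusted p = 0.12). The other 3 small subunits were not called in N1 against C0. The protein descriptions name NO06G02850 as subunit 3, NO07G00870 as subunit 4, NO17G02620 as subunit 5 and NO22G00050 as subunit 2. NO07G00870 (RFC2 or RFC4) had 18.1 and 20.3 CPM in C0, 14.7 and 19.2 CPM in N1 and 40 and 37.6 CPM in N2. NO07G00870 was 2.02-fold higher in N2 than in C0 (1.02 ± 0.15, adjusted p = 2.15e-05). NO17G02620 (RFC3 or RFC5) had 38.9 and 43.1 CPM in C0, 36.1 and 32 CPM in N1 and 58.2 and 60.4 CPM in N2. NO17G02620 rose in N2 against C0 (0.53 ± 0.10, adjusted p = 0.000293) and against N1 (0.80 ± 0.11, adjusted p = 1.68e-05). NO22G00050 (RFC2 or RFC4) had 16.7 and 23.4 CPM in C0, 17 and 12.4 CPM in N1 and 25.9 and 23.1 CPM in N2. Its rise in N2 against N1 (0.73 ± 0.20, adjusted p = 0.00587) ended at an adjusted p of 0.0665 on omitting N1 replicate 2, and that of RFC1 (0.37 ± 0.094, adjusted p = 0.00402) ended at an adjusted p of 0.055 by DESeq2 and of 0.0668 on omitting N1 replicate 1.

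**Figure D2:**
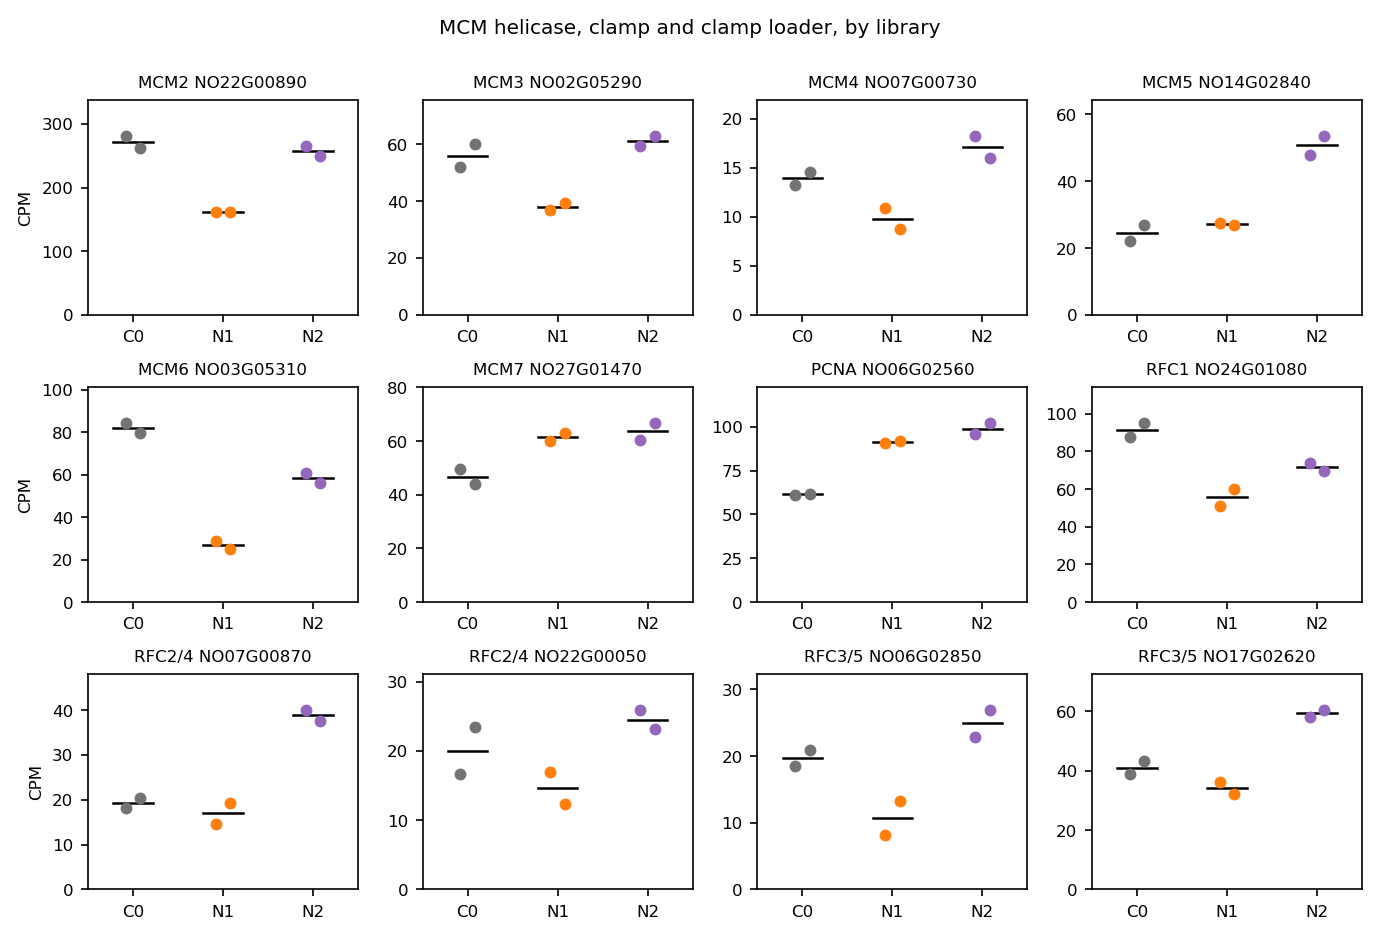
CPM (linear axis from 0) of the MCM subunits, PCNA and the 5 RFC genes in each of the 2 libraries of C0, N1 and N2, with the mean as a bar. MCM6 has 28.7 and 25.2 CPM in N1, whereas PCNA and MCM7 are higher in N1 than in C0, and all 5 RFC genes are higher in N2 than in N1.

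The single-strand binding protein RPA is annotated at 3 loci. RPA1 (NO15G01820), the large subunit, had 78.6 and 74.1 CPM in C0, 70.6 and 72 CPM in N1 and 81.2 and 77 CPM in N2. RPA1 was called in no comparison, with log2 fold changes of -0.10 ± 0.081, adjusted p = 0.293 in N1 against C0 and 0.05 ± 0.076, adjusted p = 0.554 in N2 against C0. RPA2 (NO04G00690), the middle subunit, had 35.5 and 35.6 CPM in C0, 43.8 and 34.5 CPM in N1 and 54.4 and 52.6 CPM in N2. RPA2 rose in N2 against C0 (0.59 ± 0.11, adjusted p = 0.000366). NO26G00220 carries the same KEGG ortholog as RPA1, but its protein description is that of an uncharacterized Arabidopsis protein. It had 10.1 and 13.8 CPM in C0, 1.78 and 1.49 CPM in N1 and 10.9 and 16.5 CPM in N2. It showed the lowest level relative to C0 of all 112 members in N1 (log2 fold change -2.85 ± 0.38, adjusted p = 8.53e-06) and the largest rise of all members in N2 against N1 (3.04 ± 0.36, adjusted p = 6.07e-06). N2 and C0 overlapped for this gene. Its lowest library held 7 counts.

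The primase and polymerase alpha genes mostly rose. POLA1 (NO23G00800), the catalytic subunit, had 32.6 and 40.6 CPM in C0, 56.3 and 56.7 CPM in N1 and 75.2 and 83.8 CPM in N2. POLA1 had a log2 fold change of 0.62 ± 0.12, adjusted p = 0.000244 in N1 against C0 and of 1.12 ± 0.11, adjusted p = 3.06e-07 in N2 against C0. POLA2 (NO01G00290), its B subunit, had 27.8 and 29.5 CPM in C0, 47.2 and 40.9 CPM in N1 and 61.2 and 63.3 CPM in N2. POLA2 differed by 0.62 ± 0.12, adjusted p = 0.000251 in N1 and 1.12 ± 0.11, adjusted p = 3.03e-07 in N2, both against C0. In N2 POLA1 stood 2.17-fold and POLA2 2.17-fold above C0, and N2 was also higher than N1 in both (0.49 ± 0.10, adjusted p = 0.000752 for POLA1 and 0.50 ± 0.10, adjusted p = 0.000713 for POLA2). PRI1 (NO03G04980), the small primase subunit that makes the primer, had 12.3 and 9.19 CPM in C0, 18.6 and 19.2 CPM in N1 and 20.2 and 20.5 CPM in N2. PRI1 was higher on both days (0.82 ± 0.19, adjusted p = 0.00175 in N1 and 0.92 ± 0.19, adjusted p = 0.000475 in N2, both against C0). PRI2 (NO03G04540), the large primase subunit, had 15.7 and 13.4 CPM in C0, 10.3 and 8.74 CPM in N1 and 18 and 17 CPM in N2. PRI2 rose in N2 against N1 (0.87 ± 0.20, adjusted p = 0.00168). Its lower level in N1 than in C0 (-0.61 ± 0.21, adjusted p = 0.0182) was a call that ended at an adjusted p of 0.12 by DESeq2, of 0.115 on omitting C0 replicate 1 and of 0.0991 on omitting N1 replicate 2.

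In polymerases delta and epsilon the catalytic subunits were lower on day 1. POLD1 (NO26G00900), the catalytic subunit of delta, had 44.1 and 53.6 CPM in C0, 27.6 and 25.2 CPM in N1 and 58.1 and 60.1 CPM in N2. POLD1 had a log2 fold change of -0.89 ± 0.13, adjusted p = 1.75e-05 in N1 against C0 and of 1.16 ± 0.12, adjusted p = 1.39e-06 in N2 against N1. POLE1 (NO09G01170), the catalytic subunit of epsilon, had 120.1 and 115 CPM in C0, 64 and 63.9 CPM in N1 and 107 and 106 CPM in N2. POLE1 fell in N1 against C0 (-0.88 ± 0.073, adjusted p = 5.78e-08) and rose in N2 against N1 (0.74 ± 0.072, adjusted p = 8.18e-07). On day 2 both were near their C0 level. In N2 against C0 POLE1 was not called (-0.14 ± 0.064, adjusted p = 0.0723), and the call of POLD1 (0.27 ± 0.11, adjusted p = 0.0331) ended at an adjusted p of 0.184 by DESeq2, of 0.325 on omitting C0 replicate 1, of 0.0648 on omitting N2 replicate 1 and of 0.125 on omitting N2 replicate 2. Their B subunits stood higher. POLE2 (NO10G03890) had 11.3 and 9 CPM in C0, 16.3 and 17.1 CPM in N1 and 22.6 and 23.4 CPM in N2. POLE2 rose in N2 against C0 (1.18 ± 0.18, adjusted p = 3.85e-05), and its call in N1 against C0 (0.71 ± 0.19, adjusted p = 0.00449) ended at an adjusted p of 0.0508 on omitting C0 replicate 2. POLD2 (NO07G00460) had 30.6 and 25.1 CPM in C0, 35.7 and 33.7 CPM in N1 and 34.6 and 35.2 CPM in N2. Its small calls (0.32 ± 0.13, adjusted p = 0.0427 in N1 and 0.33 ± 0.13, adjusted p = 0.0327 in N2, both against C0) ended for N1 at an adjusted p of 0.0876 with library totals only, of 0.146 by DESeq2, of 0.311 on omitting C0 replicate 2, of 0.16 on omitting N1 replicate 1, of 0.0619 on omitting N1 replicate 2, of 0.054 on omitting N2 replicate 1 and of 0.0554 on omitting N2 replicate 2, and for N2 at an adjusted p of 0.18 by DESeq2, of 0.282 on omitting C0 replicate 2, of 0.0794 on omitting N2 replicate 1 and of 0.109 on omitting N2 replicate 2. POLE3, a histone-fold subunit of epsilon, is annotated at 2 loci with consecutive identifiers and fractional counts, so that reads may be split between them. NO19G01290 had 55.6 and 50.5 CPM in C0, 20.4 and 15.6 CPM in N1 and 24.1 and 22.9 CPM in N2. NO19G01290 fell on both days (-1.55 ± 0.14, adjusted p = 1.62e-07 in N1 and -1.17 ± 0.13, adjusted p = 1.36e-06 in N2, both against C0). NO19G01280 had 68.5 and 68.9 CPM in C0, 39.4 and 62.5 CPM in N1 and 52.7 and 60.7 CPM in N2. Its call in N1 against C0 (-0.44 ± 0.15, adjusted p = 0.0192) ended at an adjusted p of 0.0591 by DESeq2, of 0.0595 on omitting C0 replicate 1, of 0.0659 on omitting C0 replicate 2 and of 0.327 on omitting N1 replicate 1.

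Enzymes that finish the lagging strand were lower on day 1 in part. FEN1 (NO23G01570), which cuts the displaced flap, had 49.6 and 62 CPM in C0, 24.6 and 29 CPM in N1 and 36.3 and 39.6 CPM in N2. FEN1 fell in N1 (-1.06 ± 0.14, adjusted p = 6.32e-06) and in N2 (-0.56 ± 0.12, adjusted p = 0.00095), both against C0. DNA2 (NO06G01730), a nuclease and helicase for longer flaps, had 20.4 and 29.9 CPM in C0, 18 and 9.17 CPM in N1 and 24.8 and 21.4 CPM in N2. Its call in N1 against C0 (-0.88 ± 0.26, adjusted p = 0.00736) ended at an adjusted p of 0.115 on omitting C0 replicate 2 and of 0.0872 on omitting N1 replicate 2. The bacterial-type ribonuclease HII (rnhB, NO26G00470), which removes ribonucleotides from DNA, had 60.5 and 60.9 CPM in C0, 33.1 and 27.1 CPM in N1 and 29.1 and 28.6 CPM in N2. It fell to about the same level on both days (-1.01 ± 0.12, adjusted p = 1.92e-06 in N1 and -1.07 ± 0.11, adjusted p = 6.6e-07 in N2, both against C0). The eukaryotic ribonuclease H2 followed another course. Its B subunit RNASEH2B (NO09G01260) had 7.74 and 7.66 CPM in C0, 5.55 and 5.33 CPM in N1 and 16 and 16.7 CPM in N2. RNASEH2B was not called in N1 against C0 (-0.50 ± 0.26, adjusted p = 0.0972) and rose in N2 against C0 (1.08 ± 0.21, adjusted p = 0.000339). The other 2 subunits, RNASEH2A and RNASEH2C, had log2 fold changes of -0.51 and 0.04 in N1 against C0 and of 0.81 and 0.52 in N2 against N1. The calls in N2 against N1 ended at an adjusted p of 0.0589 by DESeq2, of 0.0687 on omitting N1 replicate 2 and of 0.0702 on omitting N2 replicate 2 for RNASEH2A, and at an adjusted p of 0.0996 by DESeq2, of 0.0942 on omitting N1 replicate 1 and of 0.0558 on omitting N2 replicate 2 for RNASEH2C.

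DNA ligases, which seal the nicks, diverged. Among 4 genes with the LIG1 ortholog only NO14G01570 is described as DNA ligase 1, and the other 3 as DNA ligase 6, a plant type. NO11G03000 had 32.9 and 30.6 CPM in C0, 113 and 109 CPM in N1 and 83.8 and 82.7 CPM in N2. NO11G03000 showed the largest rise of the replication members on both days (log2 fold change 1.80 ± 0.087, adjusted p = 1.1e-10 in N1 and 1.39 ± 0.087, adjusted p = 2.9e-09 in N2, both against C0). NO11G02990, which comes just before it in the numbering, had 26.8 and 20.5 CPM in C0, 15.3 and 20 CPM in N1 and 36.8 and 39 CPM in N2. NO11G02990 was higher in N2 than in C0 (0.68 ± 0.15, adjusted p = 0.00115) and than in N1 (1.11 ± 0.16, adjusted p = 4.6e-05). The call of NO11G02990 in N1 against C0 (-0.42 ± 0.18, adjusted p = 0.047) ended at an adjusted p of 0.0648 with size factors of DESeq2, of 0.179 by DESeq2, of 0.0947 with just the compared groups fitted, of 0.0633 with the replicate number as a block, of 0.375 on omitting C0 replicate 1, of 0.325 on omitting N1 replicate 1, of 0.063 on omitting N2 replicate 1 and of 0.0641 on omitting N2 replicate 2. Both loci have fractional counts, and reads may be split between them. NO21G02210 had 24.8 and 26.2 CPM in C0, 10.5 and 11.3 CPM in N1 and 13 and 12.5 CPM in N2. NO21G02210 fell on both days (-1.23 ± 0.18, adjusted p = 2.06e-05 in N1 and -1.0 ± 0.16, adjusted p = 7.94e-05 in N2, both against C0). DNA ligase 1 itself (NO14G01570) had 48.8 and 41.2 CPM in C0, 26 and 35.8 CPM in N1 and 42.4 and 40.3 CPM in N2. It had a log2 fold change of -0.55 ± 0.15, adjusted p = 0.00394 in N1 against C0, a call that ended at an adjusted p of 0.0533 on omitting C0 replicate 1 and of 0.071 on omitting N1 replicate 1. The bacterial-type ligase (ligA, NO02G03050) had 53.4 and 52.3 CPM in C0, 74.5 and 64.8 CPM in N1 and 52.4 and 48.9 CPM in N2. It was higher in N1 alone, with 0.40 ± 0.098, adjusted p = 0.00203 in N1 against C0, -0.06 ± 0.098, adjusted p = 0.605 in N2 against C0 and -0.46 ± 0.094, adjusted p = 0.000793 in N2 against N1.

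A further 3 genes encode DNA polymerase I of bacterial type, a family that copies organelle DNA in plants. NO17G01300, at 179 TPM in C0 the most abundant replication member, had 323 and 333 CPM in C0, 201 and 201 CPM in N1 and 203 and 202 CPM in N2. NO17G01300 fell on both days by the same amount (-0.70 ± 0.052, adjusted p = 1.43e-08 in N1 and -0.70 ± 0.051, adjusted p = 1.45e-08 in N2, both against C0). NO05G02400 had 82.4 and 73.7 CPM in C0, 121 and 134 CPM in N1 and 109.9 and 98.4 CPM in N2. NO05G02400 was higher on both days (0.71 ± 0.086, adjusted p = 3.45e-06 in N1 and 0.42 ± 0.085, adjusted p = 0.000518 in N2, both against C0). NO26G00450, whose description names the enzyme of chloroplasts and mitochondria, had 107 and 120.4 CPM in C0, 142 and 149 CPM in N1 and 130.4 and 135 CPM in N2. NO26G00450 rose in N1 against C0 (0.35 ± 0.070, adjusted p = 0.000427). On day 1 NO17G01300 was thus lower and the other 2 genes higher than in C0.

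**Figure D3:**
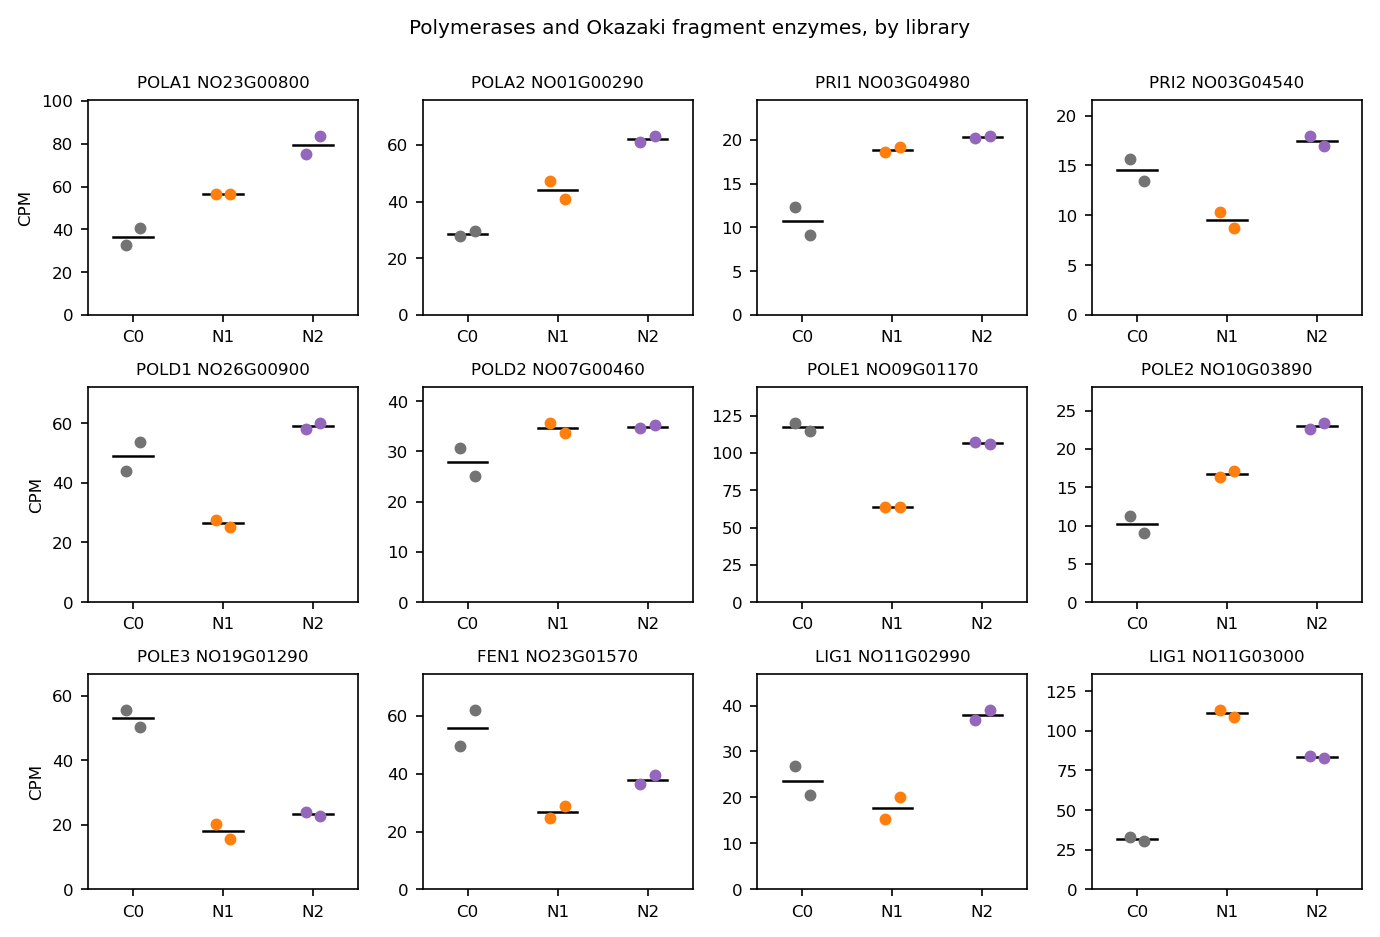
CPM (linear axis from 0) of 12 replication members, the subunits of polymerases alpha, delta and epsilon with primase, FEN1 and 2 ligase genes with consecutive identifiers, in each of the 2 libraries of C0, N1 and N2, with the mean as a bar. POLA1, POLA2 and POLE2 are highest in N2, POLD1 and POLE1 are lowest in N1, and the ligase gene NO11G03000 has 113 and 109 CPM in N1 against 32.9 and 30.6 CPM in C0.

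Base excision repair begins with a glycosylase that removes a damaged base. Of the 18 repair-only members of this pathway 8 rose and 7 fell in N1 against C0 (median -0.07, below 0 although more rose than fell), and 8 rose and 5 fell in N2 against C0 (median 0.22). As shares, 44.4% rose and 38.9% fell in N1 and 44.4% rose and 27.8% fell in N2, beside 33.3% and 37.1% of all genes in N1 and 35.0% and 34.9% in N2. The 11 glycosylase genes went both ways. The G/U mismatch-specific enzyme (TDG ortholog, NO07G01670) had 10.1 and 13.8 CPM in C0, 39.6 and 44.1 CPM in N1 and 29.7 and 25.1 CPM in N2. It was 3.49-fold higher in N1 than in C0 (1.80 ± 0.17, adjusted p = 2.26e-07) and 2.28-fold higher in N2 than in C0 (1.19 ± 0.17, adjusted p = 2.5e-05). Formamidopyrimidine-DNA glycosylase (mutM, NO03G05500), which removes oxidised purines, had 25.2 and 20.3 CPM in C0, 46.4 and 43.1 CPM in N1 and 32.2 and 34.5 CPM in N2. mutM differed by 0.98 ± 0.13, adjusted p = 1.21e-05 in N1 and 0.55 ± 0.13, adjusted p = 0.00201 in N2, both against C0. OGG1 (NO11G00200), the eukaryotic enzyme for oxidised guanine, rose in N1 (0.48 ± 0.088, adjusted p = 0.000182) and in N2 (0.42 ± 0.085, adjusted p = 0.000499), both against C0. In the opposite direction, the endonuclease III homolog described as chloroplastic (NTH, NO16G01550), which removes oxidised pyrimidines, had 71.1 and 68.7 CPM in C0, 14.7 and 15.3 CPM in N1 and 26.4 and 25.7 CPM in N2. It was 4.65-fold lower in N1 than in C0 (-2.22 ± 0.12, adjusted p = 4e-10) and 2.68-fold lower in N2 than in C0 (-1.42 ± 0.10, adjusted p = 1.31e-08), the largest fall of a repair-only member on each day. Adenine glycosylase (mutY, NO26G01760), which acts on adenine opposite oxidised guanine, had 45.8 and 45.8 CPM in C0, 17.8 and 25.2 CPM in N1 and 42 and 35.5 CPM in N2. mutY fell in N1 against C0 (-1.10 ± 0.15, adjusted p = 1.54e-05) and rose in N2 against N1 (0.86 ± 0.15, adjusted p = 0.000254).

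The gap left by base excision is filled by a small polymerase, and 3 genes carry the ortholog of polymerase lambda. NO25G00950, described as polymerase mu, had 20.4 and 21.3 CPM in C0, 58.9 and 48.6 CPM in N1 and 47 and 44.6 CPM in N2. NO25G00950 was higher on both days (1.37 ± 0.13, adjusted p = 2.37e-07 in N1 and 1.13 ± 0.13, adjusted p = 1.77e-06 in N2, both against C0). NO08G00310, the one described as polymerase lambda itself, had 15.7 and 13.4 CPM in C0, 28 and 27.1 CPM in N1 and 26.3 and 24.6 CPM in N2. NO08G00310 rose on both days (0.92 ± 0.16, adjusted p = 0.000107 in N1 and 0.81 ± 0.15, adjusted p = 0.000285 in N2, both against C0). NO25G00980, described as a DNA nucleotidylexotransferase, was the most abundant of the 3 at 146 TPM in C0 and took the other direction, with 376 and 366 CPM in C0, 199 and 198 CPM in N1 and 185 and 205 CPM in N2. NO25G00980 had a log2 fold change of -0.90 ± 0.058, adjusted p = 3.07e-09 in N1 and -0.93 ± 0.057, adjusted p = 2.14e-09 in N2, both against C0. NO25G00950 and NO25G00980 have fractional counts. Of 4 AP endonuclease genes, which cut the sugar left without a base, 2 fell on both days against C0 under every alternative. The lower ones were NO14G01550 (-0.48 in N1 and -0.27 in N2) and NO26G01390 (-0.45 in N1 and -0.62 in N2). The other 2 had a call upwards that ended under 4 alternatives each. NO17G01290 had 1.0 in N1 against C0, a call that ended at an adjusted p of 0.0783 by DESeq2, of 0.305 on omitting C0 replicate 2, of 0.105 on omitting N1 replicate 1 and of 0.0626 on omitting N1 replicate 2. NO05G02710 had 0.35 in N2 against C0, a call that ended at an adjusted p of 0.157 by DESeq2, of 0.467 on omitting C0 replicate 1, of 0.076 on omitting N2 replicate 1 and of 0.151 on omitting N2 replicate 2. Calls were also made in other glycosylase genes. UNG (NO07G03380), which removes uracil, rose in N1 against C0 (0.40 ± 0.10, adjusted p = 0.00366). Of the other NTH genes, the call of NO01G01590 in N1 against C0 (-0.52) ended at an adjusted p of 0.0534 by DESeq2, and that of NO18G00440 (-0.44) at an adjusted p of 0.0775 by DESeq2, of 0.0527 on omitting C0 replicate 2 and of 0.112 on omitting N1 replicate 1. NO17G00020 carries the MBD4 ortholog but is described as an esterase, and rose on both days (0.48 in N1 and 0.68 in N2, both against C0).

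In nucleotide excision repair falls outnumbered rises on both days against C0. Of its 19 repair-only members 9 fell and 1 rose in N1 against C0 (median -0.31), and 10 fell and 2 rose in N2 against C0 (median -0.25), with 8 and 9 of the falls held under every alternative. The falls were 47.4% of the pathway in N1 and 52.6% in N2, where 37.1% and 34.9% of all genes fell. In N2 against N1 7 rose (36.8%) and 5 fell (26.3%), with a median of 0.11, beside 29.4% and 28.5% of all genes, and the 7 rises came down to 4 on omitting N1 replicate 1 and to 3 by DESeq2. ERCC6 or CSB (NO12G02740), which starts repair at stalled RNA polymerase, had 66.7 and 68.7 CPM in C0, 24.2 and 30.3 CPM in N1 and 26.4 and 32.1 CPM in N2. CSB was 2.49-fold lower in N1 than in C0 (-1.32 ± 0.13, adjusted p = 3.24e-07) and 2.32-fold lower in N2 than in C0 (-1.21 ± 0.12, adjusted p = 4.37e-07). N1 and N2 overlapped in this gene. XPF (NO14G02200), the nuclease that cuts on one side of the lesion, had 72.6 and 65.9 CPM in C0, 31.5 and 33.5 CPM in N1 and 42 and 41.1 CPM in N2. XPF differed by -1.09 ± 0.10, adjusted p = 2.53e-07 in N1 and -0.74 ± 0.095, adjusted p = 7.12e-06 in N2, both against C0. The next identifier, NO14G02210, carries the same ortholog and fell in N1 against C0 (-0.78 ± 0.14, adjusted p = 0.000184). Both have fractional counts. XPG (NO05G03300), which cuts on the other side of the lesion, had 92.7 and 90.9 CPM in C0, 72.2 and 73.8 CPM in N1 and 40.9 and 46.9 CPM in N2. XPG fell further on day 2, with -1.06 ± 0.086, adjusted p = 4.71e-08 in N2 against C0 and -0.73 ± 0.090, adjusted p = 8.33e-06 in N2 against N1. Its call in N1 against C0 (-0.33 ± 0.083, adjusted p = 0.00258) ended at an adjusted p of 0.0574 by DESeq2.

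The damage sensor XPC (NO17G02490) was lower on day 2 only, with 24.4 and 21.1 CPM in C0, 20.8 and 21.3 CPM in N1 and 10 and 13.6 CPM in N2. XPC had log2 fold changes of -0.11 ± 0.18, adjusted p = 0.599 in N1 against C0 and -0.94 ± 0.18, adjusted p = 0.00037 in N2 against C0, and of -0.83 ± 0.19, adjusted p = 0.00163 in N2 against N1. A second gene with the XPC ortholog, NO12G02770, had 8.34 and 10.7 CPM in C0, 76.9 and 78.2 CPM in N1 and 59.7 and 67.4 CPM in N2. NO12G02770 showed the largest rise of all 112 members on both days (3.02 ± 0.14, adjusted p = 6.46e-11 in N1 and 2.73 ± 0.14, adjusted p = 2.8e-10 in N2, both against C0). Its protein description is that of a UPF0176 family protein and not of XPC, and its counts are fractional. RAD23 (NO12G01500), the partner of XPC, fell in N1 against C0 (-0.84 ± 0.076, adjusted p = 1.41e-07) and rose in N2 against N1 (0.61 ± 0.075, adjusted p = 7.82e-06). A helicase of bacterial PcrA type (NO23G01840), also listed under mismatch repair, was lower on day 2 (-0.67 ± 0.099, adjusted p = 2.6e-05 in N2 against C0).

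TFIIH, which opens the helix at the lesion and also serves transcription, had 9 member genes, of which 4 fell and 0 rose in N1 against C0 and 4 fell and 1 rose in N2 against C0. The falls were 44.4% of the genes on each day, beside 37.1% of all genes in N1 and 34.9% in N2, and all 4 in each comparison held under every alternative. TFB4 (NO08G04020) had 73.4 and 81 CPM in C0, 27.6 and 29.4 CPM in N1 and 36.6 and 37.6 CPM in N2. TFB4 fell most (-1.44 ± 0.11, adjusted p = 1.34e-08 in N1 and -1.06 ± 0.095, adjusted p = 1.6e-07 in N2, both against C0). The helicases XPB (NO13G00450) and XPD (NO09G02220) also fell on both days, XPB by a log2 fold change of -0.37 in N1 and -0.49 in N2 and XPD by one of -0.55 in N1 and -0.57 in N2, all against C0. SSL1 (NO02G00450) fell in N1 against C0 (-0.50 ± 0.13, adjusted p = 0.00261). TFB2 (NO05G04720) had 90.7 and 92.5 CPM in C0, 85.2 and 84.6 CPM in N1 and 63.1 and 52.1 CPM in N2. TFB2 was lower on day 2 only, with -0.67 ± 0.090, adjusted p = 1.1e-05 in N2 against C0 and -0.56 ± 0.091, adjusted p = 0.00012 in N2 against N1. The gene that rose, NO10G01360, carries the CDK7 ortholog but is described as cyclin-dependent kinase 20 (0.79 ± 0.14, adjusted p = 0.000178 in N2 against C0).

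In mismatch repair 6 of 13 repair-only members fell and 0 rose in N1 against C0 (median -0.43), whereas 3 fell and 1 rose in N2 against C0 (median -0.06). The falls were 46.2% of the pathway in N1, where 37.1% of all genes fell and 33.3% rose. In N2 against C0 23.1% of the pathway fell and 7.69% rose, both below the 34.9% and 35.0% of all genes. In N2 against N1 7 rose (53.8%) and 2 fell (15.4%), with a median of 0.39, beside 29.4% and 28.5% of all genes. Of these 7 rises 3 held under every alternative, and they numbered 4 on omitting either N2 library and by DESeq2. PMS2 (NO15G03100), a MutL protein that nicks the strand with the error, had 70.5 and 64.9 CPM in C0, 61.3 and 68.6 CPM in N1 and 75.9 and 70 CPM in N2. PMS2 was called in no comparison, and MLH3 (NO01G03570) had 0.992 and 1.15 CPM in C0, 0.991 and 0.853 CPM in N1 and 1.62 and 1.68 CPM in N2. MLH3 was likewise not called. MSH6 (NO11G00730), a MutS protein for single mismatches, had 44.9 and 49.6 CPM in C0, 48.4 and 55.4 CPM in N1 and 73.7 and 77 CPM in N2. MSH6 rose on day 2 (0.67 ± 0.094, adjusted p = 1.7e-05 in N2 against C0 and 0.54 ± 0.094, adjusted p = 0.000202 in N2 against N1).

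MSH3 (NO19G00830), a MutS protein for longer loops, had 61.5 and 58.4 CPM in C0, 46 and 42.8 CPM in N1 and 52.6 and 54 CPM in N2. MSH3 fell in N1 against C0 (-0.43 ± 0.097, adjusted p = 0.0011). The bacterial-type mutS2 (NO06G02300), whose family acts outside mismatch repair in bacteria, had 40.9 and 34.3 CPM in C0, 18.2 and 15.6 CPM in N1 and 31.3 and 23.8 CPM in N2. mutS2 fell in N1 against C0 (-1.15 ± 0.17, adjusted p = 3.05e-05). In N2 against C0 its call (-0.44 ± 0.15, adjusted p = 0.018) ended at an adjusted p of 0.0871 by DESeq2, of 0.172 on omitting C0 replicate 1 and of 0.183 on omitting N2 replicate 2. Of 3 genes for exonuclease 1, which removes the strand with the error, NO11G01590 fell in N1 against C0 (-0.87 ± 0.14, adjusted p = 7.8e-05) and rose in N2 against N1 (0.82 ± 0.14, adjusted p = 0.000193).

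In homologous recombination most members were not called on day 1, and rises outnumbered falls on day 2. Of its 24 repair-only members 6 rose and 3 fell in N1 against C0 (median -0.09, below 0 although more rose than fell), and 13 rose and 6 fell in N2 against C0 (median 0.29), with 9 of the 13 rises held under every alternative. The rises were 25% of the pathway in N1, beside 33.3% of all genes, and 54.2% in N2, beside 35.0% of all genes. On omitting C0 replicate 2 the falls in N1 numbered 5 instead of 3. In N2 against N1 13 rose and 4 fell (median 0.29), where 29.4% and 28.5% of all genes did so. Of the 13 rises 12 held under every alternative, whereas 1 of the 4 falls did. Falls ended by DESeq2, with library totals only and on omitting any 1 of the N1 and N2 libraries. Genes for proteins that help the recombinase to load were higher in part. RAD51C (NO04G00810) had 28.8 and 28.5 CPM in C0, 62.6 and 68.6 CPM in N1 and 55.7 and 46.2 CPM in N2. RAD51C differed by 1.19 ± 0.12, adjusted p = 4.7e-07 in N1 and 0.83 ± 0.12, adjusted p = 2.26e-05 in N2, both against C0. XRCC3 (NO25G01100), the partner of RAD51C, had 18.1 and 14.4 CPM in C0, 22.6 and 23 CPM in N1 and 42.4 and 44.3 CPM in N2. XRCC3 was 2.68-fold higher in N2 than in C0 (1.42 ± 0.14, adjusted p = 3.78e-07) and higher in N2 than in N1 (0.93 ± 0.13, adjusted p = 3.48e-05). Its call in N1 against C0 (0.49 ± 0.16, adjusted p = 0.012) ended at an adjusted p of 0.0519 by DESeq2 and of 0.123 on omitting C0 replicate 2.

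XRCC2 (NO09G02960) had 11.3 and 12.6 CPM in C0, 18.4 and 20.7 CPM in N1 and 18 and 16.8 CPM in N2. XRCC2 rose in N1 against C0 (0.70 ± 0.18, adjusted p = 0.00338), and its call in N2 against C0 (0.54 ± 0.18, adjusted p = 0.0155) ended at an adjusted p of 0.106 by DESeq2, of 0.0918 on omitting C0 replicate 1 and of 0.0752 on omitting N2 replicate 1. RAD51D (NO06G04250) had 21.2 and 26.4 CPM in C0, 23.6 and 25.6 CPM in N1 and 18.5 and 20 CPM in N2. RAD51D was not called. The bacterial-type recA (NO15G00530) had 24.4 and 29.9 CPM in C0, 23 and 19.4 CPM in N1 and 19.6 and 18.8 CPM in N2. Its call in N2 against C0 (-0.50 ± 0.16, adjusted p = 0.0109) ended at an adjusted p of 0.0726 by DESeq2, of 0.141 on omitting C0 replicate 2 and of 0.0532 on omitting N2 replicate 2. ATM (NO12G03990), the kinase that responds to double-strand breaks, rose on both days (0.33 ± 0.084, adjusted p = 0.00256 in N1 and 0.95 ± 0.076, adjusted p = 4.22e-08 in N2, both against C0). Of 2 genes with the BARD1 ortholog, NO06G01480 had 24 and 23.5 CPM in C0, 29.7 and 34.7 CPM in N1 and 52.9 and 46.6 CPM in N2. The other, NO09G02330, had 18.9 and 24.3 CPM in C0, 26.2 and 20.7 CPM in N1 and 41.4 and 45.1 CPM in N2. Both were about as far above C0 in N2, with 1.06 ± 0.12, adjusted p = 2.45e-06 for NO06G01480, which is described as a postreplication repair ubiquitin ligase, and 1.0 ± 0.15, adjusted p = 2.89e-05 for NO09G02330. The call of NO06G01480 in N1 against C0 (0.44 ± 0.14, adjusted p = 0.0111) ended at an adjusted p of 0.0508 on omitting C0 replicate 2 and of 0.0974 on omitting N1 replicate 2.

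Of 5 genes of RecQ helicases and topoisomerase III, 3 with the BLM ortholog rose and 2 with the TOP3 ortholog fell in N2 against C0. These were 60% and 40%, beside 35.0% and 34.9% of all genes. Under every alternative 2 of the rises and 1 of the falls held. NO05G01690, with the BLM ortholog and described as helicase Q-like 1, had 14.1 and 11.1 CPM in C0, 12.1 and 9.81 CPM in N1 and 24.7 and 23.7 CPM in N2. NO05G01690 rose in N2 against C0 (0.94 ± 0.18, adjusted p = 0.000335) and against N1 (1.14 ± 0.19, adjusted p = 0.00013). NO10G01370, with the same ortholog and described as helicase Q-like 3, had 18.1 and 13.8 CPM in C0, 14.9 and 15.1 CPM in N1 and 29.2 and 28.4 CPM in N2. NO10G01370 differed by 0.86 ± 0.16, adjusted p = 0.000253 in N2 against C0 and 0.94 ± 0.16, adjusted p = 0.000203 in N2 against N1. The remaining gene with the BLM ortholog, NO12G00510, is described as helicase Q-like 4A. Its upward call in N2 against C0 did not hold under every alternative. The topoisomerase 3-beta gene (TOP3, NO21G00080) had 75.8 and 77.2 CPM in C0, 81.3 and 93.8 CPM in N1 and 55.5 and 49.4 CPM in N2. TOP3 fell in N2 against C0 (-0.54 ± 0.094, adjusted p = 0.000121) and against N1 (-0.74 ± 0.092, adjusted p = 1.03e-05). The second topoisomerase III gene, NO07G03560, is described as topoisomerase 3-alpha. It had a log2 fold change of -0.41 ± 0.11, adjusted p = 0.00453 in N2 against C0. This call ended on omitting C0 replicate 1 and on omitting N2 replicate 1. TOPBP1 (NO17G00230), a checkpoint scaffold, had 9.33 and 9.96 CPM in C0, 7.53 and 5.97 CPM in N1 and 16.1 and 14.2 CPM in N2. TOPBP1 showed the largest rise of a repair-only member in N2 against N1 (1.16 ± 0.23, adjusted p = 0.000516). Its call in N2 against C0 (0.65 ± 0.21, adjusted p = 0.013) ended at an adjusted p of 0.106 by DESeq2, of 0.0705 on omitting C0 replicate 1 and of 0.0868 on omitting N2 replicate 1. RAD54 (NO03G01540), a motor protein of strand exchange, had 12.1 and 10.9 CPM in C0, 11.1 and 8.31 CPM in N1 and 19.5 and 18.3 CPM in N2. RAD54 rose in N2 against N1 (0.96 ± 0.20, adjusted p = 0.000977).

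The complex that binds and trims the broken end has 3 genes here, of which 2 fell in N1 and 3 in N2, both against C0. Among all genes 37.1% fell in N1 and 34.9% in N2. Under every alternative 1 of the 2 falls in N1 and 2 of the 3 in N2 held. RAD50 (NO04G00500), the long coiled-coil subunit of the complex, fell on both days (-0.81 ± 0.066, adjusted p = 4.76e-08 in N1 and -0.50 ± 0.061, adjusted p = 4.39e-06 in N2, both against C0). NBS1 (NO03G02090) fell in N2 against C0 (-0.47 ± 0.11, adjusted p = 0.00157). MRE11 (NO03G04160), the nuclease, had log2 fold changes of -0.55 ± 0.20, adjusted p = 0.0224 in N1 and -0.54 ± 0.19, adjusted p = 0.0193 in N2, both against C0, and these calls ended at an adjusted p of 0.122 by DESeq2, of 0.201 on omitting C0 replicate 1 and of 0.18 on omitting N1 replicate 1 for N1, and at an adjusted p of 0.0945 by DESeq2, of 0.199 on omitting C0 replicate 1, of 0.0816 on omitting N2 replicate 1 and of 0.0508 on omitting N2 replicate 2 for N2. MUS81 (NO01G03820), a nuclease that resolves joined molecules, rose in N2 against C0 (0.55 ± 0.087, adjusted p = 5.49e-05), and the BRCA2 homolog (NO01G03660), which serves strand exchange in animals and plants, rose in N2 against N1 (0.27 ± 0.064, adjusted p = 0.00217). BRCC3 (NO13G02730), which removes ubiquitin chains, rose in N1 against C0 (0.56 ± 0.14, adjusted p = 0.00263).

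**Figure D4:**
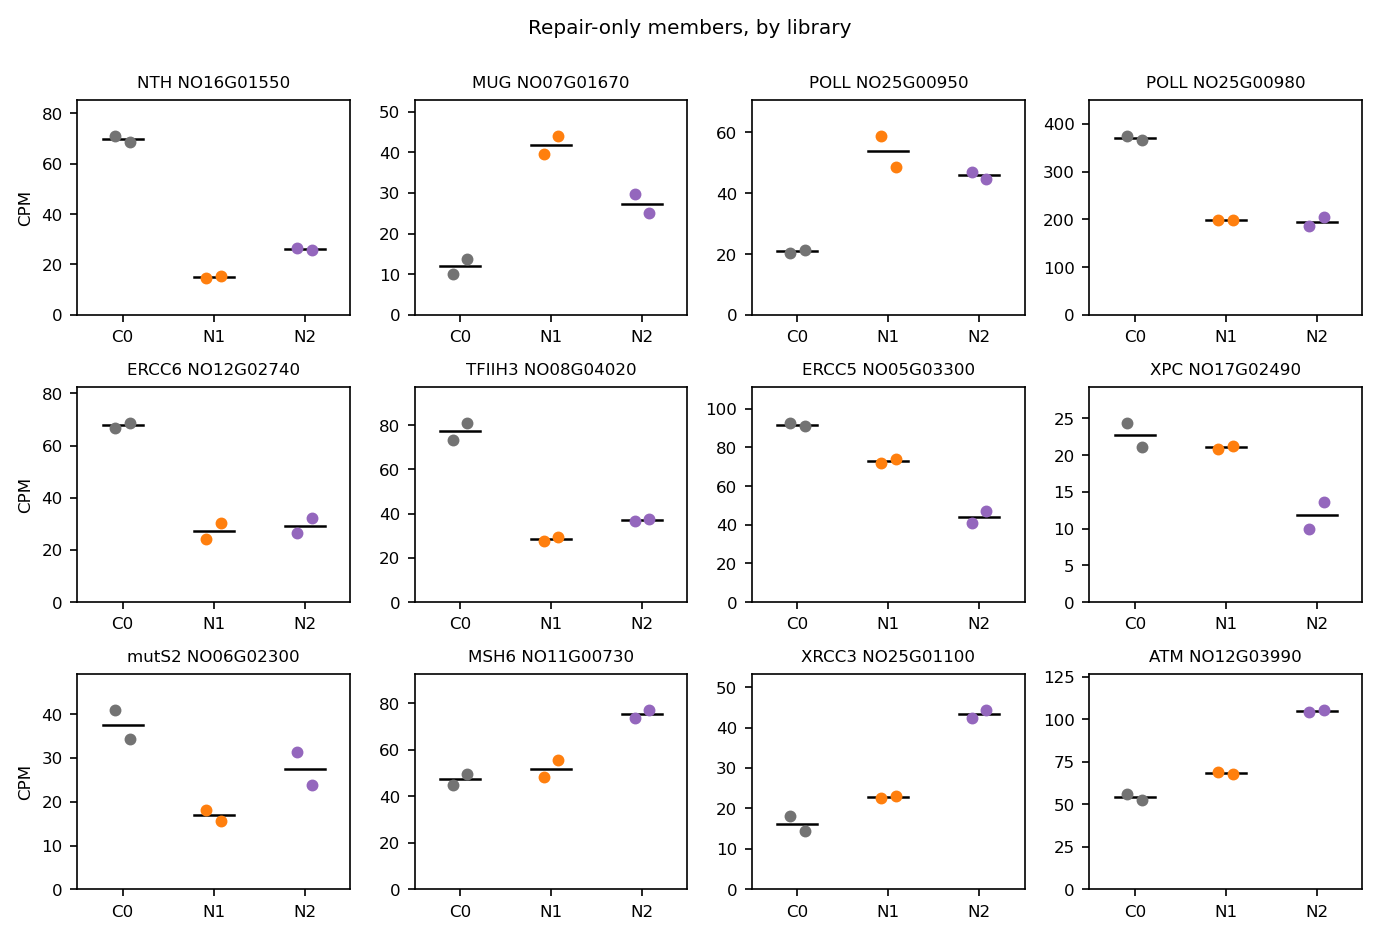
CPM (linear axis from 0) of 12 repair-only members in each of the 2 libraries of C0, N1 and N2, with the mean as a bar and XPG under its name ERCC5. The glycosylase NTH (NO16G01550), CSB (panel ERCC6) and TFB4 (panel TFIIH3) stay below C0 on both days, TDG (panel MUG) and the polymerase lambda gene NO25G00950 stay above it, and MSH6, XRCC3 and ATM are highest in N2.

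Altogether 98 members (87.5%) were called in at least 1 comparison and 14 in none, and of all 9736 genes 86.2% were called in at least 1. Among the 14 were MCM4 (NO07G00720) and RPA1 (NO15G01820) of the replication members, and the 3-methyladenine glycosylase MPG, MBD4 (NO17G00010), MLH3, PMS2, RAD51D, cyclin H, CDK7 (NO11G00290), TFB5, EXO1 (NO18G02220), the uvrD-type helicase NO06G04070 and RAD54 (NO15G02020) of the repair-only members. Some of these were low, and a change in them was not detectable at this depth, as in MLH3 with log2 fold changes of -0.21 ± 0.74, adjusted p = 0.814 in N1 and 0.61 ± 0.63, adjusted p = 0.397 in N2, both against C0. CDK7 (NO11G00290), by contrast, had 120.5 and 116 CPM in C0, 104 and 122 CPM in N1 and 122 and 122 CPM in N2.

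Genes that prepare or accompany replication were searched for by description outside the members. Of 8 tested genes of origin licensing and firing 4 fell and 1 rose in N1 against C0, 2 fell and 1 rose in N2 against C0, and 4 rose and 0 fell in N2 against N1. As shares, 12.5% rose and 50% fell in N1, 12.5% and 25% in N2, and 50% and 0% in N2 against N1. Among all genes 33.3% rose and 37.1% fell in N1 against C0. The same shares were 35.0% and 34.9% in N2 against C0 and 29.4% and 28.5% in N2 against N1. These shares over all genes apply to each of the related lists. Under every alternative 2 of the 4 falls in N1, 1 of the 2 falls in N2 and 1 of the 4 rises in N2 against N1 held. The 4 rises came down to 2 on omitting either N1 library and to 1 by DESeq2. On omitting C0 replicate 2 3 genes rose and 1 fell in N2 against C0. MCM10 (NO06G00670), which helps to start the helicase, had 16.9 and 19.3 CPM in C0, 8.13 and 8.1 CPM in N1 and 10.8 and 9.17 CPM in N2. MCM10 fell most (-1.16 ± 0.21, adjusted p = 0.000223 in N1 and -0.86 ± 0.20, adjusted p = 0.00139 in N2, both against C0). ORC1 (NO10G04060), of the complex that marks origins, was the gene that rose in N1 (0.35 ± 0.087, adjusted p = 0.00258), and the GINS subunit PSF1 (NO01G02160) the one that rose in N2 (0.94 ± 0.22, adjusted p = 0.00178), both against C0. Of 8 genes that supply deoxynucleotides 3 rose and 4 fell in N1 against C0, 5 rose and 2 fell in N2 against C0, and 5 rose and 0 fell in N2 against N1. As shares, 37.5% rose and 50% fell in N1, 62.5% and 25% in N2, and 62.5% and 0% in N2 against N1. Each of these calls against C0 and 4 of the 5 rises in N2 against N1 held under every alternative. Thymidylate kinase (NO13G01260) had 33.3 and 35.6 CPM in C0, 11.9 and 10 CPM in N1 and 29.1 and 32.4 CPM in N2, the largest fall of this list in N1 (-1.65 ± 0.16, adjusted p = 3.1e-07), and was not called in N2 against C0 (-0.17 ± 0.13, adjusted p = 0.265). The small subunit of ribonucleotide reductase at NO06G04100 had 138 and 132 CPM in C0, 64 and 72 CPM in N1 and 74.2 and 77.8 CPM in N2. NO06G04100 was the gene of this list that fell most in N2 against C0 (-0.83 ± 0.073, adjusted p = 1.27e-07).

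Of 16 tested genes of end joining and checkpoints 9 rose and 5 fell in N1 against C0, 7 rose and 1 fell in N2 against C0, and 3 rose and 2 fell in N2 against N1. In N1 56.2% of this list rose and 31.2% fell, beside 33.3% and 37.1% of all genes. In N2 against C0 43.8% rose and 6.25% fell, beside 35.0% and 34.9%. In N2 against N1 18.8% rose and 12.5% fell, beside 29.4% and 28.5%. Of the calls against C0 8 of the 9 rises and 2 of the 5 falls in N1 and 5 of the 7 rises and the 1 fall in N2 held under every alternative. Of the 5 falls in N1 some ended on omitting a single library, such as C0 replicate 2 or N1 replicate 1. Some also ended by DESeq2, at an adjusted p of 0.0896 to 0.236. The catalytic subunit of the DNA-dependent protein kinase (NO01G05570), which joins ends with the Ku proteins, had 3.97 and 5.74 CPM in C0, 12.7 and 11.3 CPM in N1 and 9.75 and 13.8 CPM in N2. It rose most (1.30 ± 0.29, adjusted p = 0.001 in N1 and 1.27 ± 0.28, adjusted p = 0.000994 in N2, both against C0). ATR (NO25G01180), the kinase that guards stalled forks, had 49.8 and 43.8 CPM in C0, 31.9 and 25.4 CPM in N1 and 52.3 and 48.6 CPM in N2. ATR fell most in N1 (-0.70 ± 0.13, adjusted p = 0.000222). The gene that fell in N2 against C0 was NO05G02230, which carries the ortholog of the Ku subunit XRCC6 (KU70) and is described as XRCC5, the other Ku subunit (-0.37 ± 0.093, adjusted p = 0.00253). Of 11 genes of photolyases, cryptochromes and direct reversal 2 rose and 5 fell in N1 against C0 and 2 rose and 3 fell in N2 against C0. As shares, 18.2% rose and 45.5% fell in N1, beside 33.3% and 37.1% of all genes. In N2 18.2% rose and 27.3% fell, beside 35.0% and 34.9%. Of the 2 rises in N1 1 ended by DESeq2 (adjusted p = 0.0769) and on omitting either C0 library or N1 replicate 2. The other calls of this list against C0 held under every alternative. A DASH cryptochrome (NO19G00720), of a family related to light-driven repair enzymes, had 18.7 and 19.7 CPM in C0, 42.2 and 39.2 CPM in N1 and 29 and 31.8 CPM in N2. It rose most in N1 (1.09 ± 0.13, adjusted p = 3.91e-06). The largest fall in N1 was that of an alkB-like dioxygenase (NO02G05400, -1.12 ± 0.17, adjusted p = 2.78e-05) and in N2 that of ALKBH2 (NO07G02950, -0.91 ± 0.13, adjusted p = 2.37e-05), whose family removes alkyl groups from bases, while NO02G05410, next in the numbering, showed the largest rise in N2 (1.31 ± 0.19, adjusted p = 2.4e-05), each against C0.

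Of 20 tested genes of topoisomerases and chromosome structure 8 rose and 8 fell in N1 against C0, 11 rose and 3 fell in N2 against C0, and 11 rose and 2 fell in N2 against N1. As shares, 40% rose and 40% fell in N1, beside 33.3% and 37.1% of all genes. In N2 against C0 55% rose and 15% fell, beside 35.0% and 34.9%. In N2 against N1 55% rose and 10% fell, beside 29.4% and 28.5%. Under every alternative 5 rises and 6 falls in N1, 7 rises and 3 falls in N2 and 10 rises and 1 fall in N2 against N1 held. Of the 2 falls in N2 against N1 1 ended with library totals only and on omitting N1 replicate 2 or N2 replicate 2. A second gene described as topoisomerase 2-binding protein 1 (NO21G02650) had 30.4 and 29.9 CPM in C0, 3.96 and 4.05 CPM in N1 and 12.3 and 11.5 CPM in N2. It showed the largest fall of this list on both days (-2.90 ± 0.21, adjusted p = 1.12e-08 in N1 and -1.34 ± 0.16, adjusted p = 4.34e-06 in N2, both against C0). The largest fitted rise was that of the gene described as topoisomerase 6 subunit A (SPO11 ortholog, NO10G02420), with 0 and 2.87 CPM in C0, 5.95 and 5.54 CPM in N1 and 5.32 and 4.43 CPM in N2, and these calls (1.96 ± 0.66, adjusted p = 0.0162 in N1 and 1.73 ± 0.65, adjusted p = 0.0294 in N2, both against C0) ended at an adjusted p of 0.266 by DESeq2, of 0.0764 on omitting C0 replicate 1 and of 0.0508 on omitting N1 replicate 1 for N1, and at an adjusted p of 0.344 by DESeq2, of 0.167 on omitting C0 replicate 1, of 0.107 on omitting N2 replicate 1 and of 0.0545 on omitting N2 replicate 2 for N2. Of 44 cell cycle genes, a search that also took in CDC48 and cyclins of transcription, 8 rose and 16 fell in N1 against C0, 13 rose and 12 fell in N2 against C0, and 18 rose and 3 fell in N2 against N1. In N1 36.4% fell, near the 37.1% of all genes, and 18.2% rose, beside 33.3%. In N2 against C0 29.5% rose and 27.3% fell, beside 35.0% and 34.9%. In N2 against N1 40.9% rose and 6.82% fell, beside 29.4% and 28.5%. Under every alternative 5 rises and 11 falls in N1, 10 rises and 6 falls in N2 and 11 rises and 2 falls in N2 against N1 held. Aurora kinase A (NO11G02310), which acts in mitosis, had 11.3 and 11.3 CPM in C0, 4.16 and 4.26 CPM in N1 and 12.4 and 11 CPM in N2, fell most of this list in N1 (-1.42 ± 0.26, adjusted p = 0.00021) and overlapped with C0 in N2 (0.05 ± 0.21, adjusted p = 0.841). A subunit of the anaphase-promoting complex (APC10, NO01G04770) had 0.992 and 0.574 CPM in C0, 5.35 and 6.39 CPM in N1 and 6.5 and 9.32 CPM in N2. APC10 rose most (2.87 ± 0.49, adjusted p = 0.000108 in N1 and 3.30 ± 0.46, adjusted p = 1.49e-05 in N2, both against C0), and cyclin-U3-1 (NO14G02130) fell most in N2 (-1.13 ± 0.037, adjusted p = 2e-12).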

How the data were processed

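Poly-A RNA of 6 libraries (C0, N1 and N2, 2 each) had been sequenced with a kit that does not keep strand, so overlapping and antisense genes cannot be told apart. Per the study's methods, the authors trimmed reads with Trim Galore, aligned them with STAR to the IMET1 genome of NanDeSyn, marked duplicates with Picard and quantified genes with featureCounts and StringTie. Versions are not given in the sources used here. The deposited per-library tables hold estimated counts, of which 78.87% to 80.11% are whole within 0.005, and which differ in total between libraries. The same deposited tables hold TPM values, scaled by the authors for effective length, used here to compare levels between genes and for class sums per library, with no test. The deposited FPKM values were not used in any test. Tables of the authors' own comparisons (fold changes, p-values and false discovery rates) were not used.

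Estimated counts were rounded and tested with edgeR 4.0.16 (R 4.3.3, quasi-likelihood, TMM, group as the only term, all 6 libraries, two-sided), over the 9736 genes that reached 1 CPM in 2 or more libraries, with Benjamini-Hochberg adjustment. The SE is approximate and was taken as the size of the log2 fold change over the root of the F statistic. The TMM factors were 0.962 to 1.04 and the common dispersion 0.00244. N2 replicate 2 was grouped by its title. Alternatives were DESeq2 1.42.0 as a test, its size factors, library totals, no filter, only the groups compared, a replicate block and each library left out. Same-numbered libraries of different groups did not deviate together (r of -0.022, 0.013 and -0.046).

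The members, roles and 6 related lists were chosen with earlier results of these data known. Values in every library were given for the 5 largest called rises and falls of each class (mean of at least 10 CPM) and for every MCM, PCNA, RFC, RPA, replicative polymerase, MutS, MutL and recombinase family member. Other members are named by role. Of the related lists only the largest called rise and fall against C0 are named. A few results that these rules would name are not reported here.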

Additional observations from a re-analysis of the deposited data

Results flagged for a closer look

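In 3 members both libraries were lower than C0 in N1 and both were higher than C0 in N2, with calls by edgeR on each side. A higher level in N2 than in N1 follows from this choice of genes, so the differences between the days are given as a description. The ligase gene NO11G02990 differed by a log2 fold change of 1.11 between N2 and N1, the catalytic subunit of polymerase delta (POLD1, NO26G00900) by 1.16 and the RecQ helicase NO12G00510 (BLM ortholog) by 0.90. Against C0 each gene had a call that did not hold under every alternative. That of NO11G02990 in N1 ended under 8 alternatives, and those of POLD1 and NO12G00510 in N2 under 4 each, with the libraries of POLD1 and NO11G02990 named beside their values. For NO12G00510, with 51.1 and 62.2 CPM in N2 against 48.0 and 45.4 CPM in C0, the call ended at an adjusted p of 0.182 by DESeq2, of 0.0672 on omitting C0 replicate 1, of 0.162 on omitting C0 replicate 2 and of 0.37 on omitting N2 replicate 2.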

How the results depend on the processing

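Of the 215 calls of members 153 held under all 12 alternatives and 0 reversed, and most class counts stayed within 1.5 times of the value given. Leaving out the 24 replication members shared with repair left 4 that rose and 7 that fell in N1 against C0, 7 and 2 in N2 against C0, and 12 and 0 in N2 against N1, since fewer genes are counted. Leaving out members with fractional counts, an alternative chosen after seeing the data, left 29 replication members, of which 11 fell (37.9%, against 47.5% of the 40) in N1 against C0 and 3 fell (10.3%, against 17.5%) in N2 against C0, so that both the number and the share were lower. By DESeq2, 7 repair-only members fell in N2 against N1 instead of 12. With 1 library left out, replication members that rose and fell numbered 9 to 11 and 16 to 19 in N1 against C0, 15 to 18 and 7 to 8 in N2 against C0, and 21 to 25 and 2 to 3 in N2 against N1. Repair-only members numbered 12 to 15 and 23 to 26, 20 to 24 and 19 to 23, and 27 to 33 and 7 to 12 in the same comparisons. The lone library of a group is then assumed to vary like the others. DESeq2 ended 48 calls, its size factors 5, library totals 5 and the fit of only the compared groups 3. Omitting any 1 of the 6 libraries ended fewer calls than DESeq2 and more than each of the others. With library totals the median of all genes was -0.10 in N1 against C0 and 0.10 in N2 against N1. The replicate block ended 3 calls and left 17 replication members that fell in N1 against C0, against 19 without it. Since the numbers did not pair the libraries, this is no paired result. With counts down to 4 in a library, small changes of low members were not detectable at this depth.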
